A study of Mus musculus with 7 samples.

Results

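Angiopoietin-like proteins, the lipases they act on and the partners of those lipases were examined in the livers of fat-fed male mice with and without TET1, an enzyme that oxidises 5-methylcytosine in DNA. The members are 9 genes, picked by the gene symbols paired with Ensembl identifiers in the tables of read counts. They are Angptl4, Angptl6, Angptl8, Lpl, Lipc, Lipg, Lipa, Gpihbp1 and Lmf1, out of 51426 genes listed and 14754 genes abundant enough to be tested. All 9 members were tested. Bulk liver RNA was sequenced from 3 WT and 4 TET1 KO mice, each library being 1 mouse. Every mouse was labelled as a C57BL/6J male and had eaten a high-fat diet (HFD) for 16 weeks, begun at 8 weeks of age according to the methods of the study, so that the diet is common to both groups and no lean liver enters the comparison. The deletion was in the whole body, and changes that begin outside the liver cannot be told apart here from changes that begin in it. The study writes these genotypes as TET1-/- and TET1 wt/wt, its notation for the germline deletion bought as B6;129S4-Tet1tm1.1Jae/J, with littermates as controls. Its methods describe a C57BL/6J background or backcrossing for the floxed and Cre lines, and do not name this line there. The strain given above therefore rests on the labels.

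Lipoprotein lipase, encoded by Lpl, hydrolyses the triglyceride of circulating particles at the capillary wall, mainly in fat and muscle. It is folded with the help of LMF1 in the endoplasmic reticulum and is carried to and held at the endothelial surface by GPIHBP1. ANGPTL4 and ANGPTL8 are secreted inhibitors of that lipase and are made in liver and fat in answer to fasting and feeding, respectively, while ANGPTL6 is a liver-secreted relative linked to energy expenditure. Hepatic lipase (Lipc) and endothelial lipase (Lipg) act on remnant particles and on high-density lipoprotein. Lysosomal acid lipase (Lipa) works inside the cell, where it hydrolyses cholesteryl esters and triglycerides that reach the lysosome.

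Lipa was the only member that passed edgeR's test between genotypes, and Angptl8 was the member with the largest ratio between its highest and lowest liver. The stretches of 250 bases before the start of these genes are therefore shown, from RefSeq on build GRCm38.p6, written 5′ to 3′ on the strand of the gene, with every CpG in capitals because CpG is the site at which cytosine methylation, the substrate of TET1, is mostly found. Methylation was not measured in these libraries. The Lipa stretch is chr19:34527475-34527724 on the minus strand and the Angptl8 stretch is chr9:21835260-21835509 on the plus strand.
Lipa: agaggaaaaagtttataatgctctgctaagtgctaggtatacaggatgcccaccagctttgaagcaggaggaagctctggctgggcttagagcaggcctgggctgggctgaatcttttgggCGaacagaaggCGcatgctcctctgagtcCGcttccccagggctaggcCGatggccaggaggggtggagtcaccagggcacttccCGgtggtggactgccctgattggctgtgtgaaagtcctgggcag
Angptl8: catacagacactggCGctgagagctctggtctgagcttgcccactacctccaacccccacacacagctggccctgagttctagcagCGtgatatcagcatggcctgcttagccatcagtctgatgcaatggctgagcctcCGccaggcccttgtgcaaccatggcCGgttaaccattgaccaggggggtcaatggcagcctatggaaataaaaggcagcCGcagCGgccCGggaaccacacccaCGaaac

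The Lipa stretch held 5 CpG, and 55.6% of 32851 mouse promoter stretches of the same length held at least as many. The Angptl8 stretch held 8 CpG, a number reached by 43.0% of the stretches. Among the other members with an entry, Angptl6 held 3, Lmf1 held 19 and each of the stretches listed for Lipc held 3, against a median of 6 over all stretches. On either strand, CCAAT occurred in the Lipa stretch 1 time and TATAAA 1 time, whereas neither CACGTG, the core of the E-box read by carbohydrate-response and sterol-response factors, nor AGGTCA, the nuclear receptor core, occurred in the stretch of either gene. Over all stretches, CCAAT was present in 33.8%, TATAAA in 12.4%, CACGTG in 6.02% and AGGTCA in 14.0%. These counts describe letters in a window and identify no bound site.

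Libraries held 15005277 to 22746138 assigned reads. Levels are given as CPM, the reads of a gene scaled to the size of its library, after TMM normalization, which corrects for a few very abundant transcripts. Hepatocyte markers were abundant, and their sum, most of it Alb, overlapped between groups (summed CPM of 8 genes, 59240 to 80270 in WT and 61760 to 73480 in TET1 KO). None of the 8 was called by edgeR (1 had an unadjusted p under 0.05), and DESeq2 called 1 lower, Tdo2, a tryptophan-degrading enzyme, for which the groups did not overlap (DESeq2 adjusted p = 0.042). The targeted gene did not check the labels, because Tet1 had 1 to 4 reads in each WT library and 1 to 4 in each TET1 KO library. For 5 cholangiocyte markers the summed CPM was 29.7 to 37.8 in WT and 46.1 to 68.0 in TET1 KO, without overlap. None of the 5 was called by edgeR (4 had an unadjusted p under 0.05), DESeq2 called 3 higher, and the part of this difference in the results was not tested. In bulk tissue, fewer cells of a type and less RNA per cell cannot be told apart.

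**Figure D1:**
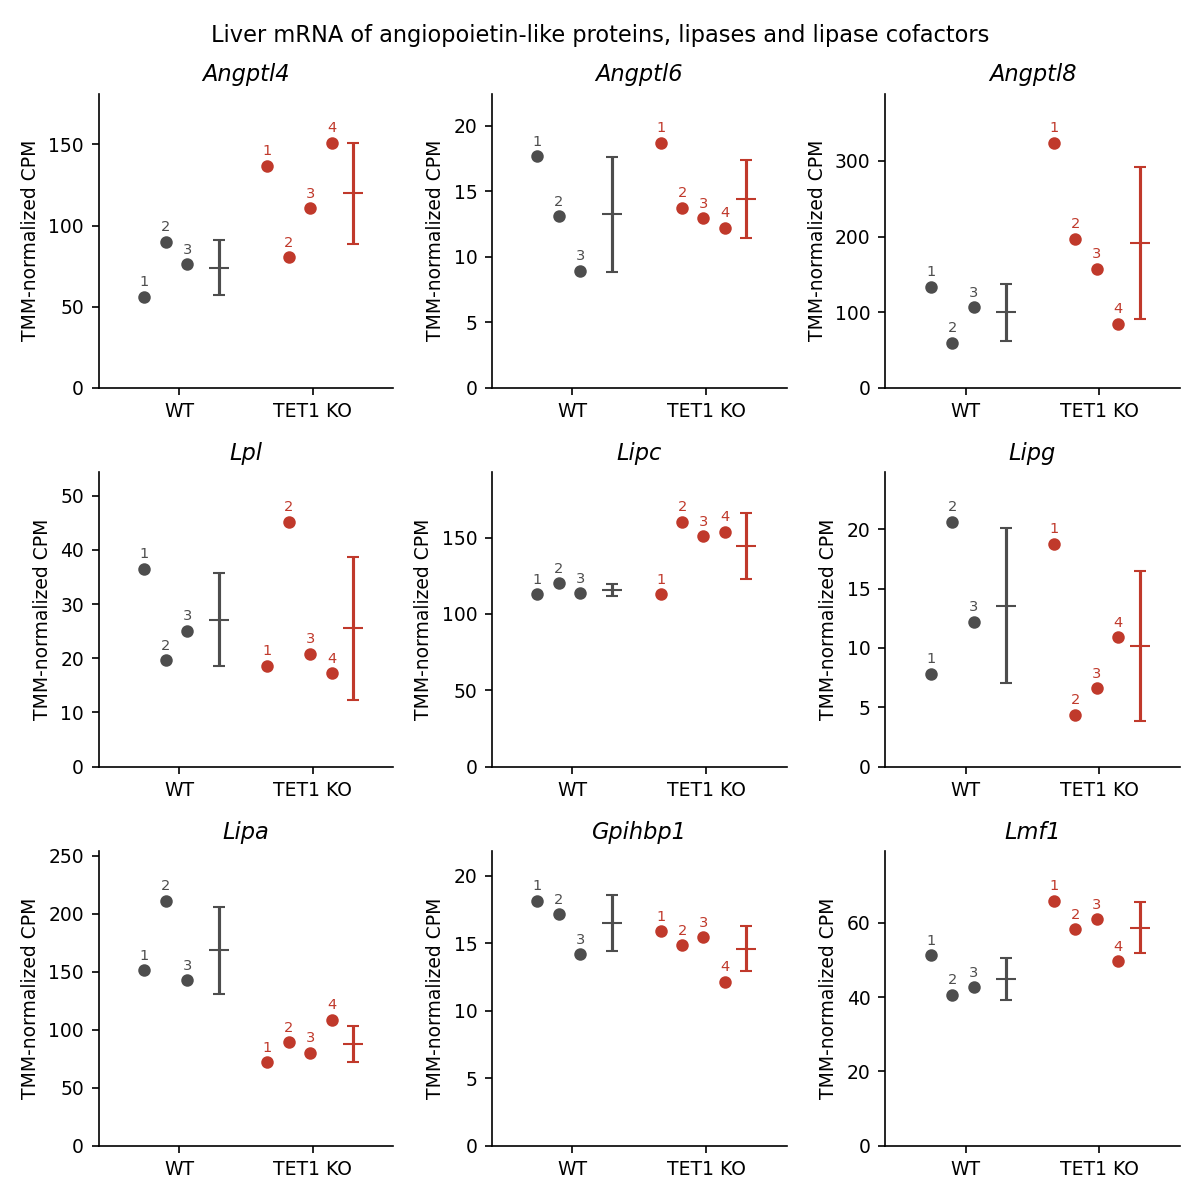
Level of each of the 9 members in every liver, in TMM-normalized CPM on axes that start at 0, with replicate numbers beside the points and the mean ± SD of each group at the right. All 4 TET1 KO livers lay below all 3 WT livers for Lipa, and the groups overlapped for each of the other 8 genes.

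Of the 9 members, 1 was called in edgeR's quasi-likelihood test at an adjusted p under 0.05, against 2.02% of all tested genes. This member, Lipa, was lower in TET1 KO (1.15% of all tested genes were called lower), and no member was called higher (0.874% of all tested genes). DESeq2 called 2 members, Lipa and Angptl4, where it called 9.49% of all tested genes. At an unadjusted p under 0.05 there were 5 members, namely Lipa, Angptl4, Angptl8, Lmf1 and Lipc, and 26.3% of all tested genes. In 1 of 9 members the groups did not overlap, which held for 22.5% of all tested genes. Fold changes on the log2 scale were positive in 5 members and negative in 4, with a median of 0.12, beside a median of 0.01 over all tested genes.

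The inhibitors of lipoprotein lipase come first. Angptl4 encodes the inhibitor that rises with fasting and fatty acids through PPAR receptors (ENSMUSG00000002289, chr17:33774900-33781575 on build GRCm38.p6, as are all positions below). Its level was 56.1, 90.0 and 76.2 CPM in WT replicates 1 to 3 and 137, 80.4, 111 and 151 CPM in TET1 KO replicates 1 to 4. Replicates 1, 3 and 4 of TET1 KO lay above every WT liver, and replicate 2 lay below WT replicate 2, so the groups overlapped. The mean was 74.1 ± 17.0 CPM in WT (SD, n = 3) and 119.8 ± 31.1 CPM in TET1 KO (SD, n = 4). The log2 fold change of 0.69 (SE 0.22) missed the threshold in edgeR's quasi-likelihood test (adjusted p = 0.0977), and passed it with DESeq2 (adjusted p = 0.0463). Over all alternatives the adjusted p lay between 0.0463 and 0.249.

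Angptl8 encodes a small feeding-induced protein that acts in complex with other members of its family (ENSMUSG00000047822, chr9:21835510-21837347, just downstream of the stretch printed above). Its level was 134, 59.3 and 106 CPM in the WT livers and 324, 197, 157 and 84.8 CPM in the TET1 KO livers. Replicates 1 to 3 of TET1 KO were above every WT liver, while replicate 4 lay within the WT range, and the highest liver held 5.47 times the level of the lowest. The mean was 99.8 ± 37.6 CPM in WT and 191 ± 100.4 CPM in TET1 KO, a log2 fold change of 0.94 (SE 0.39) that missed the threshold in edgeR's quasi-likelihood test (adjusted p = 0.163, between 0.023 and 0.49 over the alternatives). Leaving out TET1 KO replicate 1 lowered the log2 fold change to 0.55. Although the estimate for Angptl8 was about as large as that for Lipa, its standard error was larger.

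Angptl6, the third relative (ENSMUSG00000038742, chr9:20873808-20879822), was measured at 17.7, 13.1 and 8.94 CPM in WT and at 18.7, 13.7, 12.9 and 12.2 CPM in TET1 KO. The ranges overlapped throughout (13.2 ± 4.37 CPM against 14.4 ± 2.95 CPM), and the log2 fold change was 0.12 (SE 0.23, adjusted p = 0.765 in edgeR's quasi-likelihood test). Exons of Angptl6 overlap those of Shfl, an antiviral gene on the opposite strand at 70.5 to 181 CPM, and the strand setting of the read counting was not given in the sources used here. The value of Angptl6 is therefore uncertain. Shfl itself had a log2 fold change of -0.10 (adjusted p = 0.848).

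Of the lipases, Lipa was the one that changed (ENSMUSG00000024781, chr19:34492316-34527474). It was measured at 151, 211 and 143 CPM in WT and at 71.9, 89.3, 80.1 and 109 CPM in TET1 KO. Each TET1 KO liver was below each WT liver, the nearest being TET1 KO replicate 4 and WT replicate 3. The WT mean was 168 ± 37.4 CPM (SD, n = 3), and the TET1 KO mean of 87.5 ± 15.8 CPM (SD, n = 4) amounted to 0.519 of it. On the log2 scale this was a change of -0.95 (SE 0.18, adjusted p = 0.028 in edgeR's quasi-likelihood test). The adjusted p lay between 0.000222, the value of DESeq2, and 0.142 over the alternatives. Leaving out 1 liver at a time kept the log2 fold change between -1.07 and -0.76, and the call was lost in 4 of 7 such fits. The adjusted p was 0.142 without WT replicate 2, 0.0506 without TET1 KO replicate 1, 0.0713 without TET1 KO replicate 2 and 0.0945 without TET1 KO replicate 3.

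Macrophages also carry much acid lipase, so their markers were set beside Lipa. The summed level of 12 Kupffer cell and macrophage markers was 256, 224 and 363 CPM in WT and 164, 276, 191 and 352 CPM in TET1 KO, and all 12 were detected in every liver. Among the TET1 KO livers the order of Lipa was that of these markers, with replicate 1 lowest and replicate 4 highest, while among the WT livers the order was reversed. Of the 12 markers, Cd9, a tetraspanin of lipid-associated macrophages and other cells, was called lower (log2 fold change -1.04, adjusted p = 0.0259 in edgeR's quasi-likelihood test), and the other 11 were not called. The call of Cd9 was lost in 4 of 7 fits with a liver left out, with an adjusted p of 0.0515, 0.0905 and 0.0633 without WT replicates 1, 2 and 3 and 0.0824 without TET1 KO replicate 3. The part of macrophage content in the Lipa difference was not tested.

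Lpl is made mainly by cells other than hepatocytes (ENSMUSG00000015568, chr8:68880555-68906932). It was measured at 36.5, 19.6 and 25.1 CPM in WT and at 18.6, 45.2, 20.9 and 17.3 CPM in TET1 KO. Replicate 2 of TET1 KO was the highest of all livers, and the other TET1 KO livers lay near or below the lowest WT liver. The means were 27.1 ± 8.61 CPM and 25.5 ± 13.2 CPM, and the log2 fold change was -0.09 (SE 0.33, adjusted p = 0.879 in edgeR's quasi-likelihood test). Without TET1 KO replicate 2 the TET1 KO mean was 18.9 ± 1.83 CPM (SD, n = 3) and the log2 fold change was -0.53 (SE 0.22, adjusted p = 0.197), which did not pass either.

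The same library carried fat-cell transcripts. The summed level of 8 adipocyte markers was 27.8 CPM in TET1 KO replicate 2, against 0.418 to 0.751 CPM in the other TET1 KO livers and 3.48 to 15.2 CPM in WT. All 8 were detected in that library. Adipoq, the gene of adiponectin, had 60 reads there, 9 in WT replicate 2 and 0 in the other 5 livers. Plin1, which coats the lipid droplets of fat cells, had 70 reads there and at most 4 in any other liver. Cidea, a lipid droplet gene that fatty liver also expresses, made up much of the WT sums, with 8.66 CPM in WT replicate 1 and 11.3 CPM in WT replicate 2. WT replicate 2 had the second largest sum and a low Lpl. The part of fat tissue in the Lpl value was not tested.

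**Figure D2:**
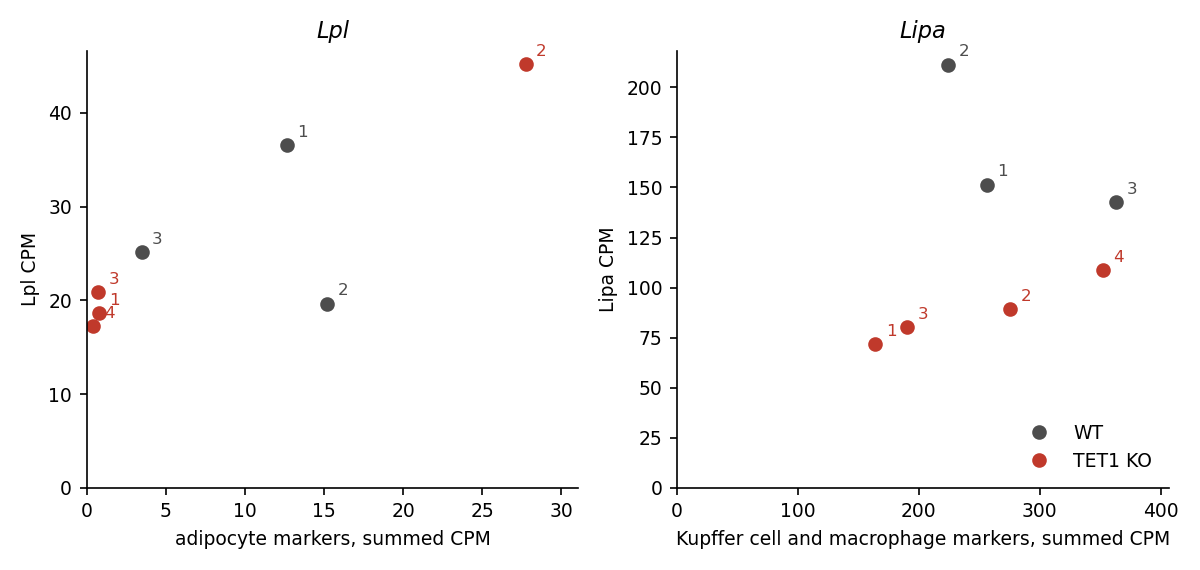
Left, Lpl in CPM against the summed CPM of 8 adipocyte markers, and right, Lipa in CPM against the summed CPM of 12 Kupffer cell and macrophage markers, with 1 point per liver and replicate numbers beside the points. TET1 KO replicate 2 stands apart at 27.8 CPM of adipocyte markers with 45.2 CPM of Lpl, and for Lipa the 4 TET1 KO points lie below the 3 WT points.

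Hepatic lipase, Lipc, is secreted by hepatocytes and bound at the sinusoid (ENSMUSG00000032207, chr9:70798128-70952221). Its level was 113, 120.1 and 113 CPM in WT and 113, 160.5, 151 and 154 CPM in TET1 KO. The WT livers were nearly equal, and replicates 2 to 4 of TET1 KO were higher while replicate 1 was not. The mean was 116 ± 3.97 CPM in WT and 145 ± 21.3 CPM in TET1 KO. The log2 fold change of 0.32 (SE 0.14) missed the threshold (adjusted p = 0.185 in edgeR's quasi-likelihood test). It stayed between 0.25 and 0.42 whichever liver was omitted.

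Endothelial lipase, Lipg (ENSMUSG00000053846), was scarce and variable, at 7.83, 20.6 and 12.2 CPM in WT and 18.8, 4.37, 6.60 and 10.9 CPM in TET1 KO. High and low livers occurred in both groups (13.6 ± 6.52 CPM against 10.2 ± 6.36 CPM). Its log2 fold change was -0.42 (SE 0.44, adjusted p = 0.559 in edgeR's quasi-likelihood test), and it was 0.02 without WT replicate 2. The 11 endothelial markers summed to 233 to 259 CPM in WT and 223 to 267 CPM in TET1 KO. None was called by edgeR (3 had an unadjusted p under 0.05), and DESeq2 called 1, Lyve1, a marker of sinusoidal endothelium, with an edgeR log2 fold change of -1.08 (DESeq2 adjusted p = 0.014).

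Of the partners of lipoprotein lipase, Gpihbp1, its capillary anchor (ENSMUSG00000022579, chr15:75596630-75598213), was measured at 18.2, 17.2 and 14.2 CPM in WT and at 15.9, 14.9, 15.4 and 12.2 CPM in TET1 KO. Replicates 1 to 3 of TET1 KO lay within the WT range and replicate 4 below it. The means were 16.5 ± 2.07 CPM and 14.6 ± 1.68 CPM, and the log2 fold change was -0.18 (SE 0.15, adjusted p = 0.469 in edgeR's quasi-likelihood test). Its highest liver held 1.49 times the level of its lowest.

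Lmf1, the chaperone-like factor needed to fold lipoprotein, hepatic and endothelial lipase (ENSMUSG00000002279, chr17:25579174-25662831), was measured at 51.2, 40.6 and 42.7 CPM in WT and at 66.0, 58.3, 60.9 and 49.6 CPM in TET1 KO. The groups overlapped only through TET1 KO replicate 4, which was just below WT replicate 1. The mean was 44.8 ± 5.63 CPM in WT and 58.7 ± 6.86 CPM in TET1 KO. The log2 fold change of 0.39 (SE 0.14) missed the threshold (adjusted p = 0.124 in edgeR's quasi-likelihood test, 0.0618 to 0.398 over the alternatives) and stayed between 0.31 and 0.48 whichever liver was omitted.

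**Figure D3:**
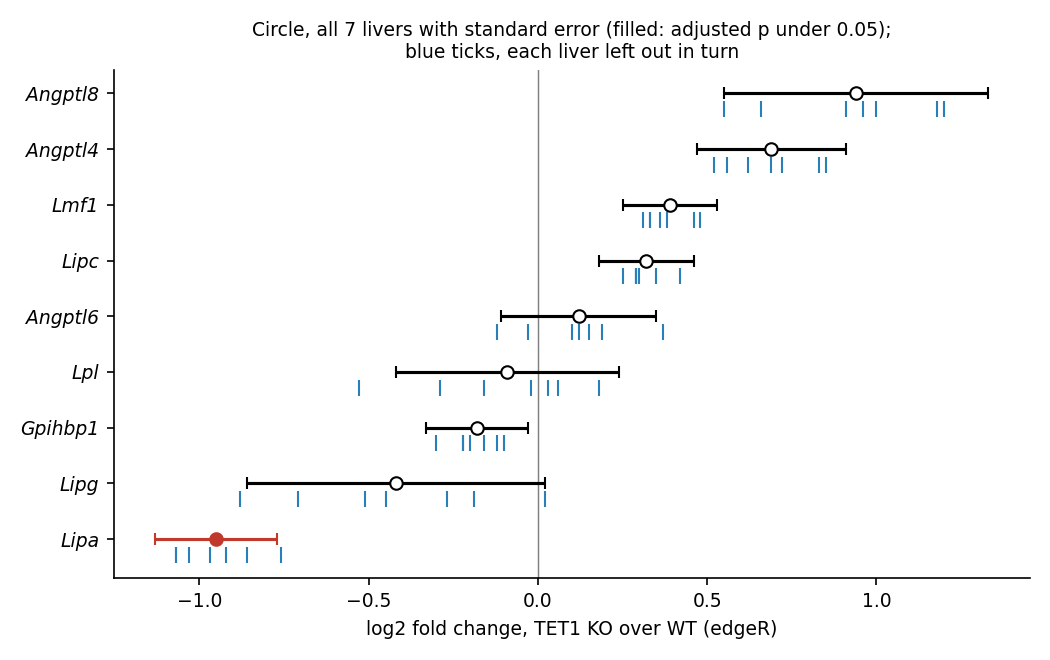
Log2 fold change of each member, TET1 KO over WT, as a circle with its standard error, and as blue ticks the values after omission of each of the 7 livers. Lipa, at -0.95, is the only filled circle, meaning an adjusted p under 0.05, and the ticks of Angptl6, Lpl and Lipg fall on both sides of 0.

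The position of a liver was not shared by all members. TET1 KO replicate 1 was the highest of all livers for Angptl6, Angptl8 and Lmf1 and the lowest for Lipa and Lipc. TET1 KO replicate 2 was the highest for Lpl and Lipc and the lowest for Lipg. WT replicate 2 was the highest for Lipa and Lipg and the lowest for Angptl8 and Lmf1.

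Levels can be ordered between genes only per length of transcript, so CPM was divided by the exonic length of each gene in kb. On this scale Angptl8 was the highest in WT, at 115 ± 43.6 CPM per kb (SD, n = 3). Lipa with 56.7 ± 12.6 and Lipc with 55.0 ± 1.89 CPM per kb came next, and the ranges of these 3 genes overlapped from neighbour to neighbour. Angptl4 at 22.6 ± 5.19 and Gpihbp1 at 20.7 ± 2.60 CPM per kb overlapped each other and lay below them. Angptl6 followed at 8.46 ± 2.79 CPM per kb. Lpl at 3.98 ± 1.26, Lipg at 3.58 ± 1.72 and Lmf1 at 3.11 ± 0.39 CPM per kb overlapped.

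In TET1 KO the order of levels began with Angptl8 at 221 ± 116 CPM per kb (SD, n = 4), without overlap with Lipc at 68.8 ± 10.2 CPM per kb. Lipa, the second in WT, was the fourth, at 29.5 ± 5.32 CPM per kb, and its range overlapped that of Angptl4 at 36.5 ± 9.48 CPM per kb. Hepatic lipase therefore lay above acid lipase in every TET1 KO liver, whereas in WT their levels per kb overlapped. The places of Lmf1 and Lpl rested on the length used, since the exons of Lmf1 together span 14440 bases and its longest coding transcript 4795 bases, and those of Lpl 6810 and 4115 bases. With the latter lengths the WT levels were 9.35 CPM per kb for Lmf1, the sixth of the 9, and 6.58 CPM per kb for Lpl, and the ranges of both overlapped that of Angptl6. On the same lengths the WT mean of hepatic lipase, 60.2 CPM per kb, was above that of acid lipase with overlapping ranges.

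**Figure D4:**
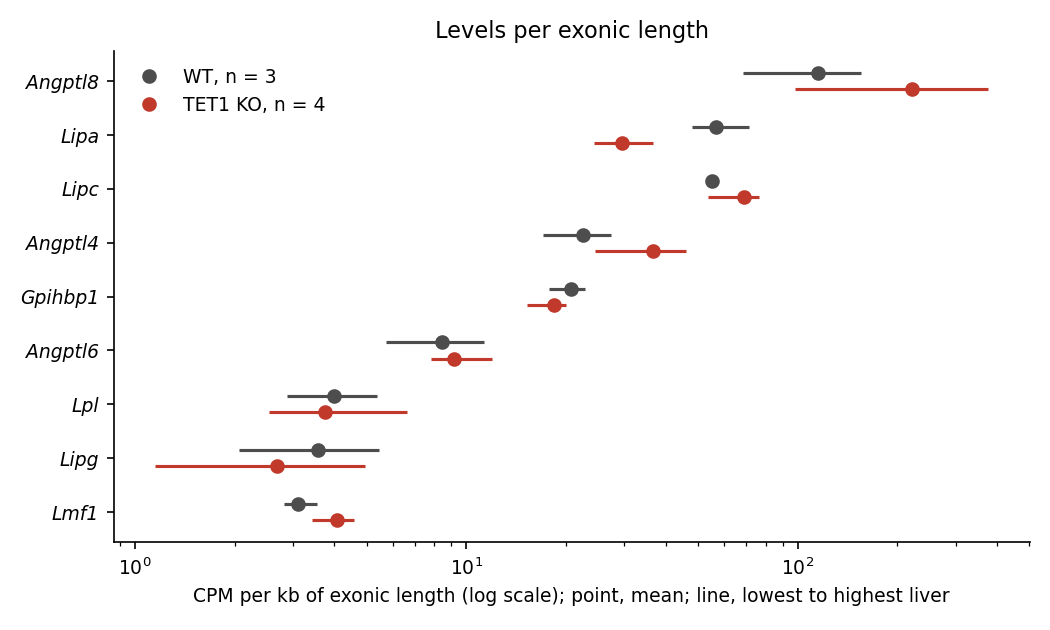
Level of each member in CPM per kb of exonic length, on a log scale, with the mean as a point and the lowest to highest liver as a line, for WT (n = 3) and TET1 KO (n = 4). Angptl8 is at the top in both groups, and the WT and TET1 KO lines do not overlap for Lipa, 48.0 to 71.2 against 24.2 to 36.6 CPM per kb.

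The genes whose log2 CPM followed Lipa most closely over the 7 livers were Ngly1, a cytosolic deglycosylase (Pearson's r = 0.996), Ccnd1, the gene of cyclin D1 (r = 0.992), and Gas2, a cytoskeletal gene (r = 0.990). These correlations are a description over 7 livers that share the genotype difference. All were lower in TET1 KO, with log2 fold changes of -0.67 for Ngly1 (adjusted p = 0.0423), -0.93 for Ccnd1 (adjusted p = 0.0312) and -1.28 for Gas2 (adjusted p = 0.0182 in edgeR's quasi-likelihood test). Ngly1 lost its call in 6 of 7 fits with a liver left out, Ccnd1 in 4 and Gas2 in 3.

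The rest of the pathway was read from 9 lists of 105 genes, of which 95 were tested. In these, edgeR called 10 genes, all of them lower in TET1 KO, while DESeq2 called 23, of which 7 were higher and 16 lower. Over all tested genes, edgeR called 2.02% and DESeq2 9.49%. With 1 liver left out at a time, 4 to 16 of the genes were called. Cd36, Vnn1, Mogat1 and Plin4 were called in every such fit, whereas the call was lost in 3 of 7 for Apoa4 and for Pparg, in 4 for Me1 and in 5 for Vldlr. With robust dispersion in edgeR's quasi-likelihood test, Me1 (adjusted p = 0.0765) and Cyp4a14 (0.08) lost the call. Vldlr lost it when at least 10 counts were required in every library (0.0504).

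Factors that fold, cleave or traffic lipases and their inhibitors gave no call by edgeR in 12 genes (4 had an unadjusted p under 0.05), with a median log2 fold change of 0.00. DESeq2 called 2, which are the genes named next. The smallest p-values belonged to Pcsk6, a proprotein convertase (log2 fold change -0.75, SE 0.19, adjusted p = 0.0665 in edgeR's quasi-likelihood test), and Sort1, the sorting receptor sortilin (0.74, SE 0.23, adjusted p = 0.0916). For both, the groups did not overlap, with Pcsk6 at 78.2 to 131 CPM in WT and 49.7 to 68.9 CPM in TET1 KO. Only 2 of 11 other angiopoietin-like and lipase genes were abundant enough to be tested. Neither was called by edgeR or DESeq2, and 0 had an unadjusted p under 0.05. Angptl2 had a log2 fold change of -0.17 (adjusted p = 0.653) and Angptl7, at 2 to 19 reads a library, of -0.85 (adjusted p = 0.382).

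Apolipoproteins of the particles on which these lipases act gave 1 call by edgeR in 11 genes, which was lower, and 4 by DESeq2, of which 3 were higher and 1 lower, with a median log2 fold change of 0.07. Apoa4, an apolipoprotein of intestine and fatty liver, fell by 1.79 on the log2 scale (SE 0.31, adjusted p = 0.0201 in edgeR's quasi-likelihood test), from 499.9 to 951 CPM in WT to 139 to 352 CPM in TET1 KO. Apoa1, the main protein of high-density lipoprotein, had a log2 fold change of 1.10 (SE 0.32, adjusted p = 0.0818), without overlap between the groups. It passed with DESeq2 (adjusted p = 2.34e-06), without a filter on low counts (0.0485) and with robust dispersion (0.0447), and its adjusted p reached 0.333 without WT replicate 2. Of 9 receptors and fatty acid carriers 8 were tested, and 2 were lower by both edgeR and DESeq2. These were Cd36, the fatty acid translocase (log2 fold change -2.97, SE 0.34, adjusted p = 0.00346), and Vldlr, a receptor that also binds lipoprotein lipase (log2 fold change -1.23, SE 0.27, adjusted p = 0.0472). Cd36 ranged over 107 to 199.9 CPM in WT and 8.77 to 29.2 CPM in TET1 KO, while the median of the list was 0.02.

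Inside the cell, none of the 10 neutral lipases and cofactors was called by edgeR (2 had an unadjusted p under 0.05, median log2 fold change 0.04), and DESeq2 called 1, Pnpla8. This phospholipase of mitochondria and peroxisomes had a log2 fold change of -0.74 (adjusted p = 0.0748 in edgeR's quasi-likelihood test) and Lipe, hormone-sensitive lipase, of 0.53 (adjusted p = 0.147). None of the 13 lysosomal partners of acid lipase was called by edgeR (6 had an unadjusted p under 0.05), and 10 of the 13 had negative log2 fold changes (median -0.35, against 0.01 over all tested genes). DESeq2 called 3, namely Npc1, Tfeb and Psap. Npc1, the exporter of the cholesterol that acid lipase frees, had a log2 fold change of 0.56 (adjusted p = 0.0779), and Tfeb, a master factor of lysosomal genes, of 0.69 (adjusted p = 0.0849). Both were higher in every TET1 KO liver than in every WT liver. Psap, the precursor of the saposins (log2 fold change -0.66, adjusted p = 0.108), and Lamp2, a lysosomal membrane protein (-0.37, adjusted p = 0.166), both named after their values were seen, were lower in every TET1 KO liver, as Lipa was.

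Among 14 nuclear factors known to act on the members, 1 was called by edgeR and 2 by DESeq2, of which 1 was higher, and the median log2 fold change was 0.03. Pparg, the adipogenic receptor that fatty liver also expresses, fell by 1.63 on the log2 scale (SE 0.31, adjusted p = 0.0265 in edgeR's quasi-likelihood test), from 8.11 to 17.1 CPM in WT to 2.44 to 6.06 CPM in TET1 KO. Mlxipl, which encodes the carbohydrate-response factor ChREBP, had a log2 fold change of 0.90 (SE 0.26, adjusted p = 0.0793), without overlap between the groups. It passed with DESeq2 (adjusted p = 0.0103), with edgeR and a replicate block in replicates 1 to 3 (0.0206), and without TET1 KO replicate 4 (0.045). Its adjusted p reached 0.326 without WT replicate 2. Ppara, the receptor of the fasting response, which was looked at after its values were known because Angptl4 is a textbook target, had a log2 fold change of -0.09 (SE 0.23, adjusted p = 0.83).

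PPAR targets gave 5 calls by edgeR in 17 tested genes, all lower (1.15% of all tested genes were called lower), and 8 by DESeq2, also all lower, with a median log2 fold change of -0.69. Mogat1, an enzyme of triglyceride synthesis, fell by 3.31 on the log2 scale (adjusted p = 0.00272 in edgeR's quasi-likelihood test) and Vnn1, a pantetheinase, by 3.28 (adjusted p = 0.00224). The lipid droplet coats Plin4 (log2 fold change -1.59, adjusted p = 0.00602) and Plin2 (-1.01, adjusted p = 0.0382) and the fatty acid hydroxylase Cyp4a14 (-2.15, adjusted p = 0.0382) were lower too. Plin2 and Cyp4a14 each lost the call in 5 of 7 fits with a liver left out, and without WT replicate 2 the log2 fold change of Cyp4a14 was -1.42 (adjusted p = 0.186). Angptl4, which belongs to the same textbook group, had a positive log2 fold change of 0.69 that passed with DESeq2 and not with edgeR. Of 12 lipogenic genes that answer to insulin and carbohydrate, as Angptl8 does, 1 was called by edgeR and 2 by DESeq2, of which 1 was higher, and the median was -0.46. The gene called by edgeR was Me1, malic enzyme, which fell by 2.46 on the log2 scale (SE 0.46, adjusted p = 0.0271). Angptl8 had a log2 fold change of 0.94 that passed in neither the main edgeR fit nor DESeq2. It passed in the edgeR fit with the replicate number as a block in replicates 1 to 3 (1.19, adjusted p = 0.023).

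**Figure D5:**
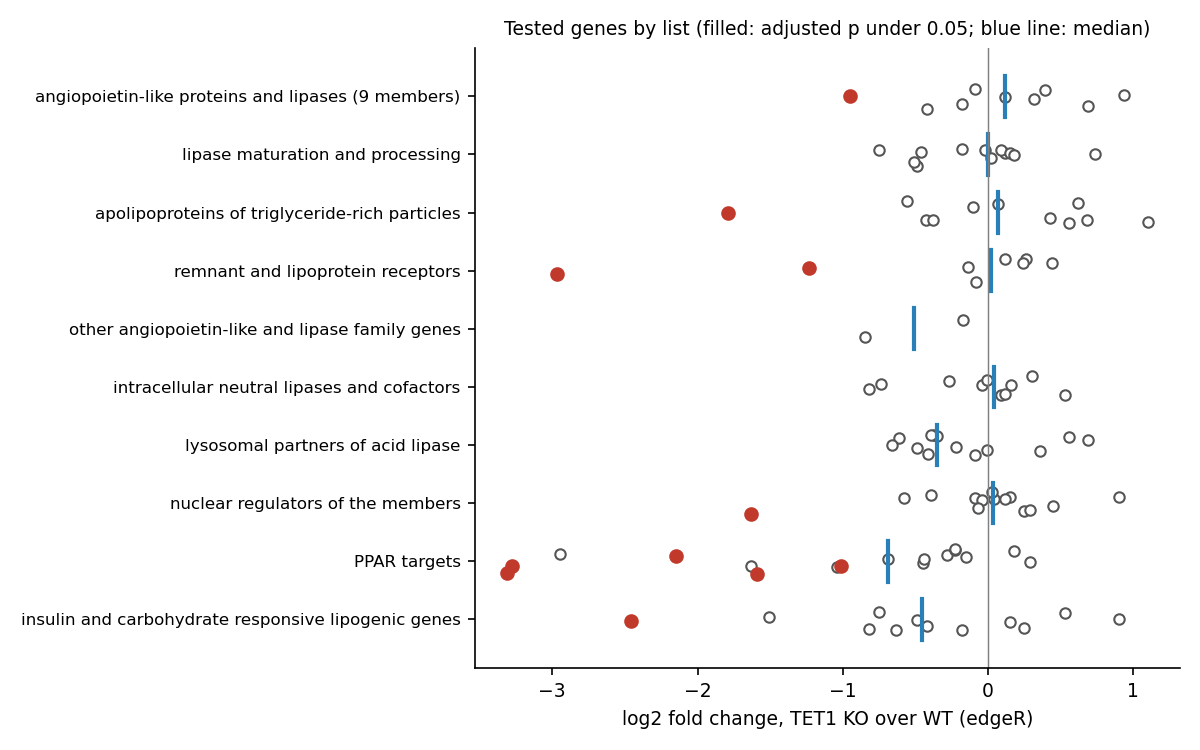
Log2 fold change, TET1 KO over WT, of every tested gene of the 9 members and of the 9 lists, with filled points for an adjusted p under 0.05 and a blue line at each median. Every filled point lies left of 0, with 5 in the PPAR targets, whose median is -0.69, and 1 among the members.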

How the data were processed

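The authors deposited 1 table of raw read counts per mouse, which was not normalized. The submitters' processing notes name GSNAP, Trimmomatic 0.36, featureCounts 1.5.3 and build GRCm38, without settings. Each of the 7 tables listed 51431 entries, 5 repeated entries were dropped, and 24623 of 51426 genes had a count. Counts were analysed with edgeR 4.0.16 in R 4.3.3 (filterByExpr, TMM, quasi-likelihood test without covariates, Benjamini-Hochberg over 14754 genes, threshold 0.05), and DESeq2 1.42.0 was an alternative. The common biological coefficient of variation was 0.208. Groups and replicate numbers came from the sample labels. Counts of replicates differed beyond sampling noise (chi-square per degree of freedom of 26.4 or more for each pair), and the labels do not say that mice came from separate litters, so p-values measure the spread between these mice.

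Other settings tried were other scalings, filters on low counts (none, or at least 10 counts in every library), robust dispersion, a replicate block and leaving out each liver, as well as 2 chosen after seeing the data: the longest coding transcript as gene length, and the 6 livers of replicates 1 to 3 without a block. The latter is the same fit as leaving out TET1 KO replicate 4. Exonic lengths came from GENCODE M1 and coordinates and promoter stretches from RefSeq, which had stretches for 5 of the 9 members. Named genes were the members, the called genes of each list (or those with the smallest p up to 2), and the 3 genes most correlated with a called member. Markers and Shfl were named beside the results they touch, and Lyve1, Tdo2, Cd9, Psap, Lamp2 and Ppara were named after their values were seen and were not carried through every alternative. Members and lists were chosen with earlier results of these data known.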

Additional observations from a re-analysis of the deposited data

Results flagged for a closer look

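In the 4 TET1 KO livers, Lpl stood apart in replicate 2, at 45.2 CPM against 17.3 to 20.9 CPM in the other 3. The gap from replicate 2 to the nearest of them was 0.871 of the whole range (Dixon's ratio, above its 95% critical value for 4 samples). The summed adipocyte markers stood apart in the same liver, at 27.8 CPM against 0.418 to 0.751 CPM, a ratio of 0.988. Of 26 levels examined in this way 2 passed, where chance gives about 1.3. The part of fat-cell transcripts in the Lpl value was not tested.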

How the results depend on the processing

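Over the alternatives, the log2 fold changes of the 9 members kept their direction and their side of the threshold in 122 instances, lost the call in 4, gained it in 2 and changed sign in 7. The fit without TET1 KO replicate 4 is also the unblocked fit of the 6 livers of replicates 1 to 3. It is counted 2 times in these numbers and in those for the other named genes. Sign changes occurred in Angptl6 (-0.12 without WT replicate 3 and -0.03 without TET1 KO replicate 1, up to 0.37 without WT replicate 1). They also occurred in Lpl, at 0.18 without WT replicate 1, 0.03 without TET1 KO replicate 1 and 0.06 without TET1 KO replicate 4. Without TET1 KO replicate 2 the Lpl value was -0.53. Lipg changed sign without WT replicate 2 (0.02, against -0.88 without TET1 KO replicate 1). Among the other named genes, direction and side of the threshold were kept in 268 instances. The call was lost in 41 and gained in 27, and the sign changed in 1. That was Angptl2 without WT replicate 2 (0.02, against -0.37 without WT replicate 3). The 298 genes called over all genes became 1400 with DESeq2, 592 with no filter on low counts, and 37 to 891 with each liver left out in turn. The calls among the members became 2 with DESeq2 and 0 to 1 with a liver left out, and the 10 in the pathway lists became 23 with DESeq2 and 4 to 16 with a liver left out. Deviations of livers with the same replicate number correlated at 0.209, -0.123 and -0.0964, so the numbers were not taken to pair the mice. With the replicate number as a block in the 6 livers of replicates 1 to 3, 1383 genes were called, 2 members (Angptl8 and Lipa) and 23 list genes. The same 6 livers without the block gave 891 genes, 1 member and 16 list genes. The cause of these differences was not tested.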
